A study of Rattus norvegicus with 12 samples.

Results

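Ventricular cardiomyocytes from newborn rats that had been stretched for 2 h were compared with unstretched cells. The comparison takes 6 of the 12 arrays of the study, 3 control arrays and 3 arrays of 2 h stretch, and covers every gene on the array that the design files name: 22079 genes, of which 14376 passed the filter on dim probes and were tested. All cells grew for 24 h with 10% serum before treatment. The stretched cells then lay on collagen I-coated silicone membranes that were pulled along both axes by 20% in a pulsatile rhythm, while the control cells stayed on the same kind of membrane without pull. The labels give the cells as neonatal and untransfected cardiomyocytes and name no strain. They call the 3 samples of a group biological replicates without saying whether they were separate isolations. Each error and p-value measures the spread between samples within a group, pooled over all 12 arrays, those of 6 h and 24 h included. The labels give no time in culture for the controls, so stretch and 2 h more or less in culture cannot be told apart.

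Stretch reaches a heart cell through integrins, the Z-disc of the sarcomere and ion channels in its membrane, and from there through MAP kinases, calcineurin, small GTPases and serum response factor to the nucleus. The earliest transcripts to answer such signals in many cell types are the immediate-early genes, which need no new protein to be transcribed and many of which encode transcription factors such as AP-1, a dimer of Fos, Jun, ATF or Maf proteins. Feedback inhibitors of the same pathways, growth factor ligands and chaperones are known to follow, and genes of the fetal heart programme such as the natriuretic peptides mark sustained load.

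Total RNA was labelled with Cy3 and read on 1-colour Agilent rat arrays. The 75th percentile of the background-subtracted intensity lay between 1142 and 1405 on the 6 arrays, and 0 spots were saturated. Levels are log2 values from which that percentile was subtracted, so a level of 0 is the 75th percentile of its array. Of 58717 spots, the stretched arrays had 64.7% to 67.7% well above background and the control arrays 68.4% to 70.6%, so the groups did not overlap in this measure. The first principal component of the 6 arrays held 38.9% of the variance and separated the groups, with the controls at -13.5 to -11.2 and the stretched arrays at 11.2 to 12.9. The second held 20.7% and set stretched replicate 1 (15.7) against stretched replicate 2 (-14.8). All 6 arrays lay on slide 1; the 3 controls and stretched replicate 1 lay in row 1 of that slide, and stretched replicates 2 and 3 in row 2. With row as a block on that slide 200 genes were called, 61 higher and 139 lower. The 6 h arrays of that slide lay only in row 2, so this change rests on stretched replicate 1 against the controls. The median change of all genes was 0.0158 both under that block and within row 1 alone. For a call lost under the block, row and the use of 1 stretched array cannot be told apart. Within row 1, where stretched replicate 1 stands alone and is assumed to vary like the other groups, 2 were called, 0 higher and 2 lower; row 2 holds no control. Under that block the AP-1 list kept 4 risers, the feedback genes of TGF-beta and related signalling 3 and the heat-shock list 2, while the sterol and cell cycle lists had 0 fallers.

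After 2 h of stretch the response was shallow, and its breadth depended on the fit and the scaling. Among the genes that rose were the stress-induced transcription factor gene Atf3, the gap junction gene Gjb2, the growth factor gene Hbegf, the inhibitors of TGF-beta signalling Smad7, Skil and Pmepa1, and the inducible chaperone gene Hspa1b, of which Hspa1b was not called with row as a block (adjusted p = 0.0533 by limma). Genes of sterol synthesis and of mitosis were among those that fell. By limma with Benjamini-Hochberg adjustment, 1322 of the 14376 genes (9.20%) were called at an adjusted p below 0.05, 445 higher (3.10%) and 877 lower (6.10%). Of these, 152 changed at least 1.5-fold (48 higher, 104 lower) and 15 at least 2-fold (2 higher, 13 lower). The median change was 0.29 on the log2 scale among the called risers and -0.34 among the called fallers. Levels on the 3 control and 3 stretched arrays did not overlap for 28.6% of all genes tested and for 1319 of the called genes. With the compared arrays fitted alone 463 genes (3.22%) were called, and with spike-in scaling 175 (1.22%). With the array median 1261 (8.77%) were called, and with a trended robust fit 1569 (10.9%). Counts under the other settings are given in the closing part.

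The split into 66.3% lower and the rest higher depends on the scale. With each array scaled by its median, 668 genes were called higher and 593 lower (47.0% lower). With scaling by the spike-in spots, which put the median change of all genes at 0.17, 128 were called higher and 47 lower (26.9% lower); without control replicate 2 that median was 0.02, and 10 were called higher and 16 lower. The changes also followed the level: the median change was -0.07 in the dimmest 3594 genes, -0.03 and -0.01 in the next sets of that size and 0.04 in the brightest. In the dimmest set 42 genes were called higher and 266 lower, in the brightest 145 and 50. Of the called fallers 39 were above background on 0 of 3 stretched arrays, and 12 of these were among the 13 that fell at least 2-fold; these met the filter on dim probes through the controls or another group. When only called genes above background on all 6 arrays were counted, 437 were higher and 797 lower, and at least 1.5-fold 41 were higher and 53 lower. Leaving out 1 array left 665 (without control replicate 2) to 1021 (without stretched replicate 2) called genes. The other 4 counts were 735 without control replicate 3, 812 without stretched replicate 1, 937 without control replicate 1 and 939 without stretched replicate 3. Of the 114 called genes that the naming rule chose, 64 kept their call whichever array was left out.

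**Figure D1:**
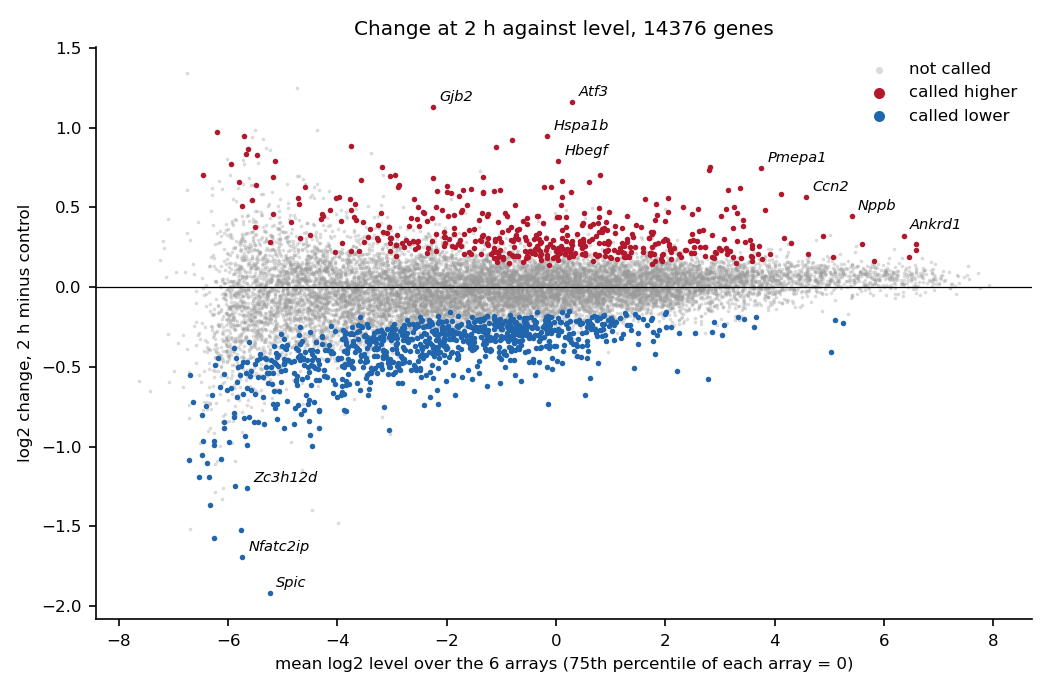
Log2 change at 2 h (stretched minus control) against the mean log2 level over the 6 arrays for each of 14376 genes; red points were called higher and blue points lower by limma. The falls past 2-fold lie among dim genes at the left, while risers such as Atf3, Hbegf, Pmepa1 and Nppb span the range of levels.

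AP-1 genes held the highest share of risers among the gene lists with more than 3 members tested: 8 of 14 rose, 0 fell and 6 were not called, with a median change of 0.28 against -0.01 over all genes. Atf3, which dimerises with Jun proteins (probe on chromosome 13, 107191691 to 107191749, rat build rn4), stood at -0.25, -0.34 and -0.25 on the control arrays and at 0.87, 0.79 and 0.98 on the stretched arrays. All 3 stretched arrays lay above all controls by more than 1 log2 unit. Its rise was 2.24-fold (a log2 change of 1.16 with an SE of 0.11 over 3 arrays in each group, adjusted p = 7.66e-04 by limma). The small Maf proteins lack a transactivation domain and pair with other bZIP factors. Mafk stood at -1.87, -1.86 and -1.83 in controls and at -1.18, -1.26 and -1.28 after stretch (0.62 ± 0.08, adjusted p = 0.00242). Maff rose by 0.64 ± 0.13 and Mafg by 0.27.

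Fos, the prototype subunit, was more variable: its control levels were -2.22, -2.67 and -2.53 and its stretched levels -1.80, -1.95 and -1.86. The groups still did not overlap (0.60 ± 0.11, adjusted p = 0.00884). Fosl1 rose by 0.60 ± 0.12, Jund by 0.49 and Jun by 0.28. Junb, by contrast, had overlapping groups, with 1.87, 1.68 and 1.65 in controls and 1.81, 1.60 and 1.95 after stretch (0.05 ± 0.10, adjusted p = 0.786). Without control replicate 2, Maff (adjusted p = 0.0517) and Fosl1 (0.0527) lost the call and the list had 5 risers.

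Of 35 further immediate-early genes 12 rose, 1 fell and 22 were not called, with a median of 0.10. Nr4a3, an orphan nuclear receptor, rose by 0.63 ± 0.09 and its relative Nr4a1 by 0.40 ± 0.07. Arid5a, an RNA-binding protein that stabilises inflammatory transcripts, rose by 0.63 ± 0.10, from between -2.43 and -2.19 in controls to between -1.71 and -1.64. Ier3, a survival factor, rose by 0.47 ± 0.04 and the proto-oncogene Myc by 0.47 ± 0.08. Egr1, an early growth response factor and among the best-known stretch genes, had tight groups that did not overlap, with 0.32, 0.29 and 0.29 in controls and 0.51, 0.47 and 0.50 after stretch, yet was not called (0.19 ± 0.10, adjusted p = 0.292); on slide 1 alone its adjusted p was 0.0471. The error of the main fit also takes in the spread of Egr1 within the 6 h and 24 h groups. The faller of the list was Klf4, a Krüppel-like factor (-0.24, adjusted p = 0.0496).

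Several of these risers carry the full cyclic AMP response element, the site at which CREB and ATF dimers bind, close to the start of transcription. The 8 letters TGACGTCA, which read the same on both strands, were searched in RefSeq promoters of build GRCr8, taken as 250 bases before to 50 after the start site. They occur in 5 of the 13 called risers of the AP-1 and immediate-early lists that have a promoter there (38.5%), in 3.11% of 9728 tested genes and in 1.91% of all 27457 promoters. No share was counted for uncalled members of these lists, so membership and the rise cannot be told apart. The windows are shown because the same letters recur in them; capitals mark the match, each is read 5′ to 3′ on the strand of its gene, and the matches begin 51 bases before the start for Maff, 66 for Ier2 and Plk2, 221 for Jund and 201 for Btg2.
Maff, chr7:112792728-112792751 (+): tggggcggTGACGTCActgcatga
Ier2, chr19:40399299-40399322 (+): cgtttcagTGACGTCActcttact
Plk2, chr2:43702462-43702485 (+): cctcttcgTGACGTCAcgaggccc
Jund, chr16:18769977-18770000 (-): cacccccaTGACGTCAacccacaa
Btg2, chr13:48087876-48087899 (-): cccaataaTGACGTCAgtgagcga

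Ier2, a nuclear regulator, rose by 0.20, Plk2, a polo-like kinase, by 0.29 and the antiproliferative gene Btg2 by 0.44; the call of Plk2 was lost without any 1 of the 6 arrays. Over all 305 called risers with a promoter the share was 7.54%, and over the called fallers 4.09%. A match is a string of letters and not a measured binding site. Risers of other lists that hold the same letters are Areg, Rcan1 and Ppp1r15a, besides Skil and Pmepa1, with matches that begin 91, 207, 66, 53 and 4 bases before the start site.
Areg, chr14:17265717-17265740 (-): gagaggcgTGACGTCAcgggcggt
Rcan1, chr11:45118428-45118451 (-): tagggtgtTGACGTCAcctctttc
Ppp1r15a, chr1:105139647-105139670 (-): ctctccggTGACGTCAgcatagcg
Skil, chr2:114203610-114203633 (-): gggccgggTGACGTCAgaggctgt
Pmepa1, chr3:182478646-182478657 (-): gcgcTGACGTCA

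Of 25 ligands of the EGF family and of blood vessel growth 4 rose, 2 fell and 19 were not called, with a median of 0.02. Hbegf, which is shed from the membrane of heart cells by metalloproteinases, stood at -0.36, -0.39 and -0.31 in controls and at 0.45, 0.42 and 0.44 after stretch. The 3 stretched arrays lay within 0.03 of one another, and the rise of 1.73-fold (0.79 ± 0.05, adjusted p = 2.57e-04 by limma) was measured with a small error. Areg, amphiregulin, rose from -0.35, -0.68 and -0.55 to 0.03, 0.00 and 0.27 (0.63 ± 0.11, adjusted p = 0.00698). Ereg, epiregulin, rose by 0.34, while Egf itself was dim and fell, from between -5.04 and -4.82 to between -5.52 and -5.37 (-0.50 ± 0.08). Vegfa, the main angiogenic ligand, had an adjusted p of 0.0525 (-0.23). The count of risers was 2 without control replicate 2, control replicate 3 or stretched replicate 1.

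Of 16 inhibitors of MAP kinase signalling 3 rose and 0 fell (median 0.02). Dusp8, a phosphatase of the stress kinases JNK and p38, stood at -0.30, -0.15 and -0.22 in controls and at 0.54, 0.24 and 0.56 after stretch (0.67 ± 0.08, adjusted p = 0.00239). Spry2, a Sprouty inhibitor of receptor tyrosine kinases, rose by 0.33 ± 0.06 and Errfi1, which binds the EGF receptor, by 0.24 ± 0.06; Errfi1 lost its call without any 1 of the 6 arrays. Dusp6, the phosphatase of ERK, was at -0.03 (adjusted p = 0.768).

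Smad7, Skil and Pmepa1, feedback inhibitors of TGF-beta signalling, rose at 2 h. Smad7 blocks the receptor, Skil represses SMAD complexes in the nucleus and Pmepa1 sequesters receptor SMADs. Smad7 stood at 0.44, 0.45 and 0.50 in controls and at 1.17, 1.06 and 1.26 after stretch (1.63-fold, 0.70 ± 0.06, adjusted p = 5.00e-04 by limma). Skil rose from -3.47, -3.20 and -3.49 to -2.56, -2.76 and -2.74 (0.70 ± 0.09, adjusted p = 0.00239). Pmepa1, a bright gene, rose from 3.47, 3.31 and 3.38 to 4.27, 3.91 and 4.20 (0.74 ± 0.09, adjusted p = 0.00219). In none of these genes did the groups overlap. Of 30 feedback genes of BMP, Notch and TGF-beta signalling 4 rose; the Notch ligand gene Jag1 fell (-0.25), 25 were not called, and the median was 0.05. Against the same 3 controls the changes at 6 h and 24 h were 0.22 and 0.21 for Smad7, 0.18 and 0.51 for Skil and 0.52 and 0.20 for Pmepa1. The 24 h arrays and 1 array of 6 h lay on slide 2 and the controls on slide 1. Slide and time therefore cannot be told apart in any 24 h value against the controls.

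**Figure D2:**
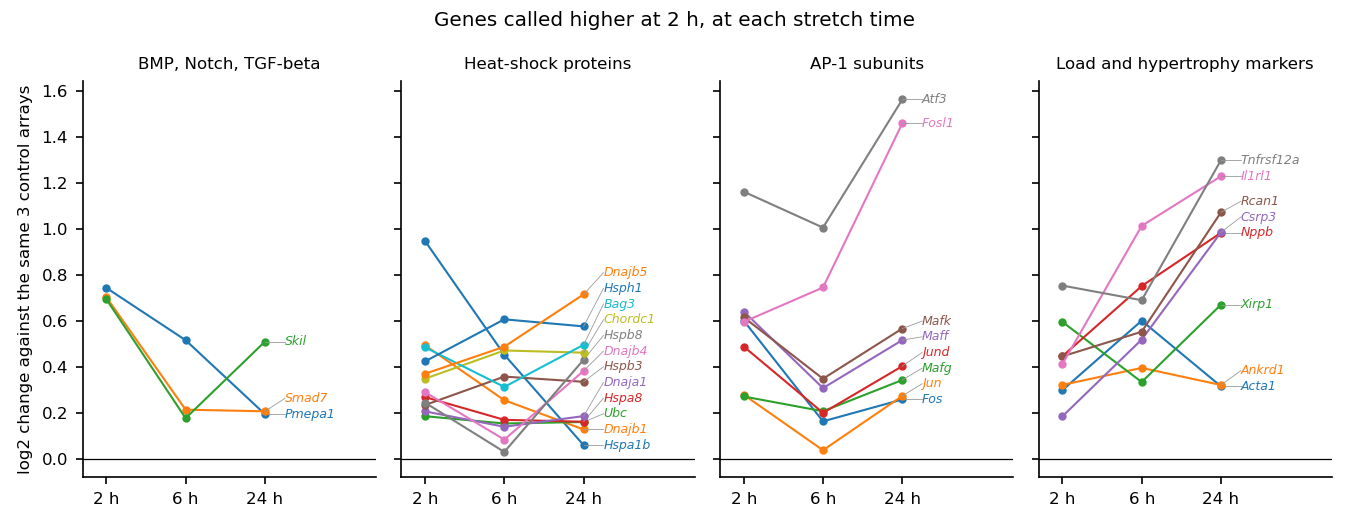
Log2 change against the same 3 control arrays at 2, 6 and 24 h of stretch for genes called higher at 2 h in 4 lists, without 1 that is not reported here; each line is 1 gene and each point a difference of means of 3 arrays per group. Smad7, Skil and Hspa1b are highest at 2 h, whereas Nppb, Rcan1 and Tnfrsf12a are highest at 24 h. The 24 h arrays lay on slide 2 and the controls on slide 1.

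Among the 26 markers of load and hypertrophy that were tested there were 8 risers and 1 faller, with 17 uncalled and a median of 0.11; the risers were 5 with quantile normalization and 0 with row as a block. Tnfrsf12a, which binds the cytokine TWEAK, went up from 2.62, 2.19 and 2.49 to 3.18, 3.14 and 3.25 (1.69-fold, 0.75 ± 0.09, adjusted p = 0.00239 by limma). Nppb, the B-type natriuretic peptide, rose from 5.31, 5.10 and 5.16 to 5.55, 5.66 and 5.71 (0.45 ± 0.08, adjusted p = 0.00766). Nppa, the A-type peptide, went the other way on average, from 5.50, 5.34 and 5.44 to 5.15, 5.31 and 5.31, and was not called (-0.17 ± 0.06, adjusted p = 0.112); it passed with normexp and quantile normalization (0.0476) and with the deposited series matrix (0.0483).

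Rcan1, the calcineurin inhibitor whose promoter window is printed above, rose by 0.45 ± 0.07, and Xirp1, which binds actin at intercalated discs, by 0.60 ± 0.10. Ankrd1, a Z-disc protein that shuttles to the nucleus, stood at 6.31, 6.09 and 6.22 in controls and at 6.52, 6.52 and 6.55 after stretch (0.32 ± 0.06). Il1rl1, the receptor of interleukin-33, rose by 0.41. Acta1, skeletal actin, rose by 0.30 ± 0.07, with no call without control replicate 1 (adjusted p = 0.065), control replicate 2 (0.0811), stretched replicate 1 (0.0728) or stretched replicate 2 (0.0623). The faller was Mef2c, a muscle transcription factor (-0.26). The myosin genes Myh6 (0.14 ± 0.07, adjusted p = 0.264) and Myh7 (0.08 ± 0.06, adjusted p = 0.499) were not called, nor was Xirp2, whose stretched arrays were spread from -1.20 to -0.58 around controls at -0.97 to -0.94.

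**Figure D3:**
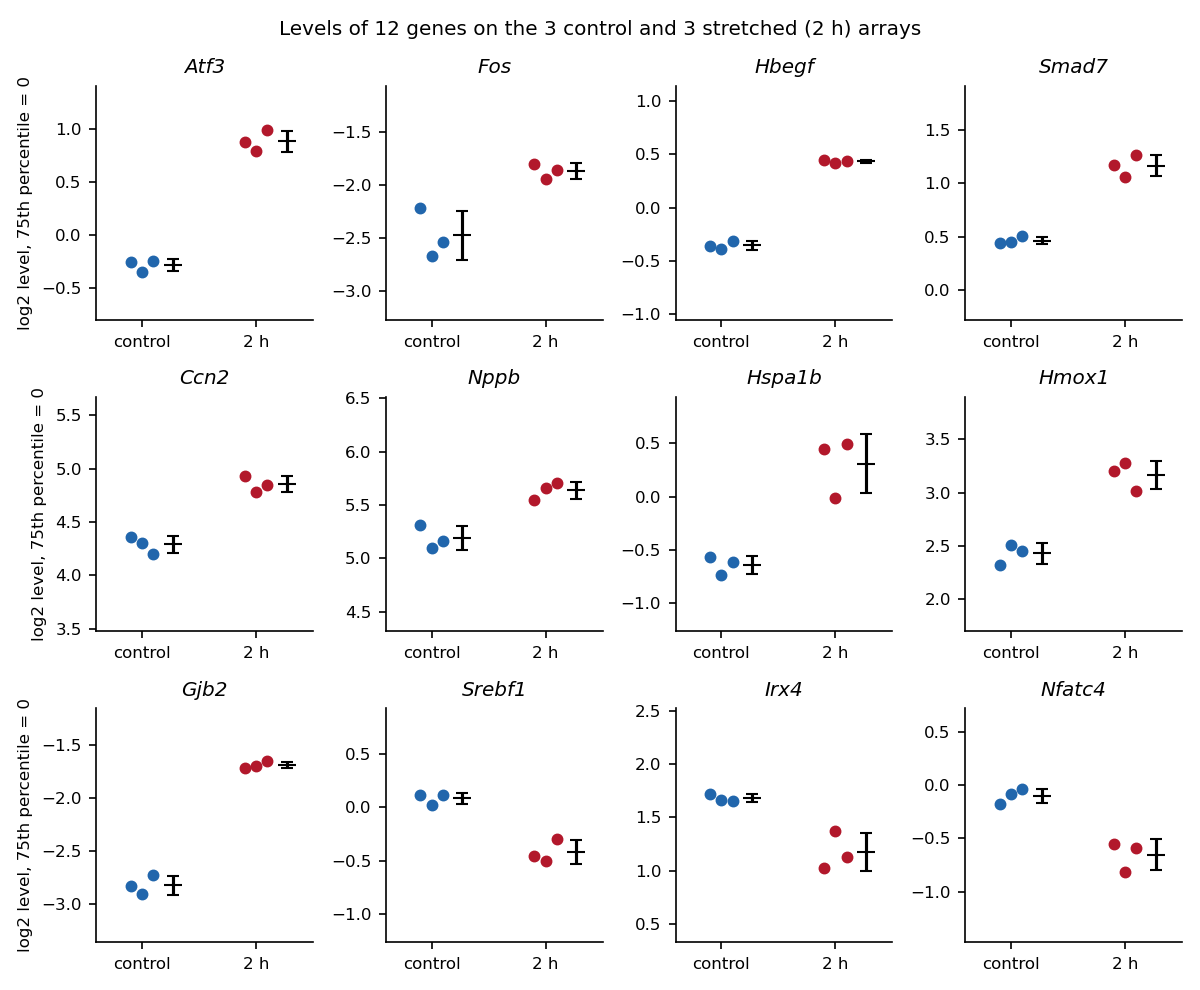
Log2 level (75th percentile of the array = 0) of 12 genes on each of the 3 control arrays (blue) and the 3 arrays of 2 h stretch (red); the bar is the mean ± SD, and every panel spans 2.2 log2 units. The groups do not overlap in any of the 12 genes; Srebf1, Irx4 and Nfatc4 are lower and the rest higher after stretch.

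Among 24 targets of YAP and serum response factor 5 rose, 1 fell and 18 were not called (median 0.06). Ccn2, connective tissue growth factor, stood at 4.36, 4.31 and 4.20 in controls and at 4.94, 4.78 and 4.85 after stretch (0.56 ± 0.06, adjusted p = 0.00215 by limma). Ccn1, its close relative, had overlapping groups, with 3.03, 2.98 and 3.09 against 3.32, 2.85 and 3.18 (0.08 ± 0.10, adjusted p = 0.675). Lats2, a kinase that inhibits YAP and is itself a YAP target, rose by 0.33 ± 0.05, the LIM protein gene Ajuba by 0.30 and the matrix gene Thbs1 by 0.29. F3, tissue factor, fell by 0.28. There were 3 risers without control replicate 1, control replicate 3 or stretched replicate 3; Ajuba lost its call without control replicate 1 (adjusted p = 0.0589), control replicate 3 (0.0548), stretched replicate 2 (0.0512) or stretched replicate 3 (0.0515), and Thbs1 lost its own without control replicate 1 (0.0861), control replicate 3 (0.1), stretched replicate 1 (0.0756) or stretched replicate 3 (0.0941).

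Srf, which encodes serum response factor, rose from 3.23, 3.25 and 3.21 to 3.57, 3.67 and 3.60 (0.38 ± 0.05, adjusted p = 0.00239). Its promoter holds a pair of CArG boxes, the site of serum response factor itself, and Acta1, Klf6 and Herpud1 hold a CArG box each; these 4 are the risers of all lists with a match in the window, out of 70 with a promoter. CArG boxes occur in 1.27% of tested genes and in 1.97% of all called risers. The windows are shown with the box in capitals; in Srf the matches begin 81 and 61 bases before the start site, in Acta1 94, in Klf6 201 and in Herpud1 36.
Srf, first box, chr9:21923987-21924012 (+): ggggctcgCCATATAAGGagcggcct
Srf, second box, chr9:21924007-21924032 (+): cggcctcgCCATAAAAGGaaacattg
Acta1, chr19:68784271-68784296 (-): cccaacacCCAAATATGGcttgggaa
Klf6, chr17:69458662-69458687 (-): taggaaggCCTTTAATGGagaggctc
Herpud1, chr19:10614726-10614751 (-): cggggcgcCCATAAAAGGtacccgag

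Of 39 heat-shock proteins and co-chaperones 12 were called higher, 0 lower and 27 not called, and the median was 0.15. Hspa1b, the inducible Hsp70, stood at -0.57, -0.73 and -0.62 in controls and at 0.45, -0.01 and 0.49 after stretch (1.93-fold, 0.95 ± 0.12, adjusted p = 0.00242 by limma). Stretched replicate 2 was lower than the other stretched arrays but above every control; with row as a block the adjusted p was 0.0533. Its sequence is nearly the same as that of Hspa1a, so the probe may read both. Dnajb1, the Hsp40 that hands clients to Hsp70, rose from 0.46, 0.54 and 0.62 to 1.19, 0.89 and 1.03 (0.50 ± 0.08). Bag3, the co-chaperone that keeps the Z-disc protein filamin in turnover, rose from 3.64, 3.55 and 3.56 to 4.21, 3.93 and 4.07 (0.49 ± 0.09). Stretched replicate 2 was the lowest of the 3 stretched arrays in both.

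Hsph1, a nucleotide exchange factor of Hsp70, rose by 0.43 ± 0.09, and lost its call without control replicate 1 (adjusted p = 0.0552), control replicate 2 (0.0587), stretched replicate 1 (0.0556) or stretched replicate 3 (0.0594). The constitutive Hsp70 gene Hspa8 rose by 0.27, Chordc1, an Hsp90 partner, by 0.35, the small heat-shock gene Hspb8, a partner of Bag3, by 0.25 and Dnaja1 by 0.21. Hsp90aa1, the inducible Hsp90, was not called (0.19, adjusted p = 0.104). There were 7 risers without control replicate 2 or 3 or stretched replicate 1 or 3, 8 without control replicate 1 and 10 without stretched replicate 2. With spike-in scaling 1 of them was called. At 6 h and 24 h Hspa1b stood at 0.45 and 0.06 against the same controls and Dnajb1 at 0.26 and 0.13.

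The heat-shock element, the site of heat-shock factor 1, is built of inverted GAA units; it was searched as GAANNTTC or TTCNNGAA, which can overlap each other and read the same on both strands. It occurs in 7 of the 9 called heat-shock risers with a RefSeq promoter (77.8%), in 11.2% of tested genes with a promoter and in 15.4% of all promoters. Over all called risers the share was 9.51%. No share was counted for the uncalled members of the list, so membership of the list and the rise cannot be told apart here. The windows are printed because several hold runs of more than 1 match; capitals mark matched bases, and Chordc1 has 4 matches in a run just after the start site.
Bag3, chr1:192533318-192533345 (+): gatgggaccaGAAGTTTCtagccggcca
Hspb8, chr12:45837275-45837302 (+): gaagccaggaGAAGTTTCtaggcgcgtg
Hspa8, upstream, chr8:50080291-50080323 (+): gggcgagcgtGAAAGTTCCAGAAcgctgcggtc
Hspa8, near the start, chr8:50080449-50080481 (+): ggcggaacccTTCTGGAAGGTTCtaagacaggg
Hsph1, upstream, chr12:10427253-10427280 (+): ggtggaatctTTCTCGAAggctcgagaa
Hsph1, near the start, chr12:10427322-10427354 (+): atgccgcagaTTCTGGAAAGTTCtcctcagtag
Dnajb1, before the start, chr19:41431142-41431162 (-): gggaggggcgGAAGGTTCtgg
Dnajb1, after the start, chr19:41431117-41431128 (-): tctgGAAGCTTC
Dnaja1, upstream, chr5:60638213-60638240 (+): aaagcctctaGAAGATTCtacaaggatc
Dnaja1, after the start, chr5:60638409-60638425 (+): ggcgGAACTTTCCAGAA
Chordc1, chr8:23650827-23650853 (+): accgGAACGTTCGGGAAGATTCCTGAA

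The matches begin 132 bases before the start site in Bag3, 23 in Hspb8, 213 and 55 in Hspa8, 105 and 36 in Hsph1, 11 before and 18 after in Dnajb1, 181 before and 10 after in Dnaja1 and 11 after in Chordc1. Bag3 and Hspb8, whose proteins form a complex, have the same 8 matched letters.

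**Figure D4:**
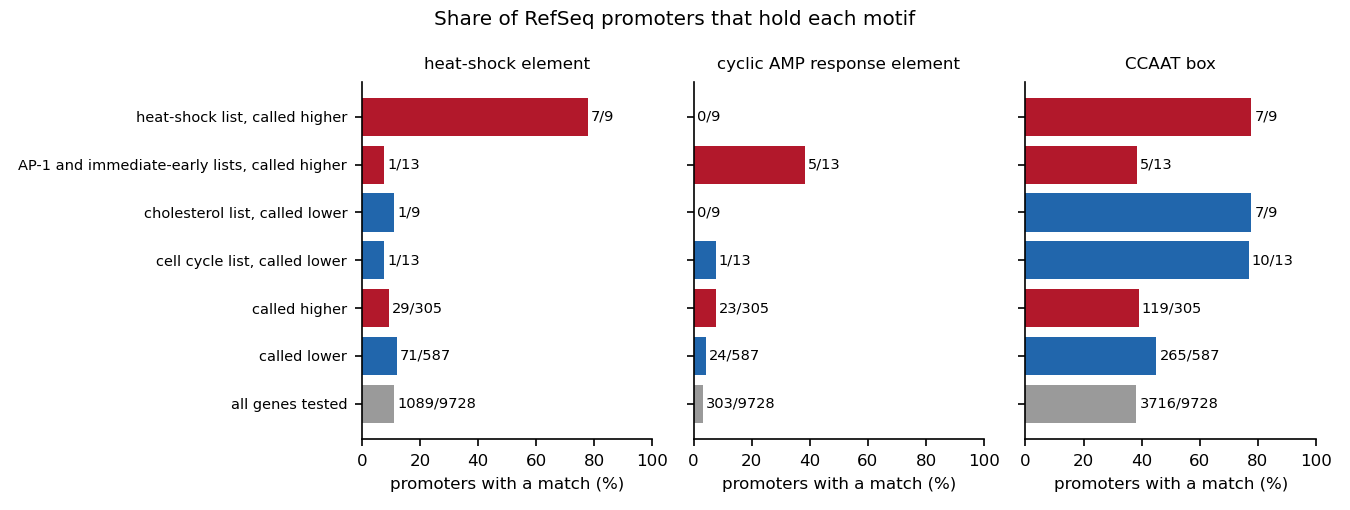
Share of RefSeq promoters (250 bases before to 50 after the start site) that hold a heat-shock element, a cyclic AMP response element or a CCAAT box, by gene set; numbers beside the bars give promoters with a match over promoters in the set. The heat-shock risers stand at 77.8% for the heat-shock element against 11.2% of all genes tested, and the AP-1 and immediate-early risers at 38.5% for the cyclic AMP response element against 3.11%. Uncalled members of the lists have no bar of their own.

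Of 31 genes of NRF2 and oxidative stress 3 rose and 0 fell (median 0.11). Hmox1, heme oxygenase 1, rose from 2.32, 2.51 and 2.46 to 3.20, 3.28 and 3.02 (1.66-fold, 0.73 ± 0.13, adjusted p = 0.00831 by limma). Osgin1, a growth inhibitor under NRF2 control, rose from -1.54, -1.37 and -1.38 to -0.84, -0.76 and -0.88 (0.60 ± 0.11). Srxn1, sulfiredoxin, rose by 0.50 ± 0.11, a call lost when any 1 of the 6 arrays was left out (adjusted p 0.0505 to 0.0729). The classic NRF2 target Nqo1 was at 0.07 (adjusted p = 0.578). The share of members called, 9.68%, was near that of all genes.

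Of 32 genes of the unfolded protein response and the integrated stress response, 3 were called higher and 3 lower, with a median of -0.02 that was 0.03 under the array median. Herpud1, an endoplasmic reticulum degradation factor, rose by 0.46 ± 0.07, Ddit4, an inhibitor of mTOR, by 0.41 ± 0.09 and Ppp1r15a, which restarts translation, by 0.31 ± 0.06. Eif2ak3, the kinase PERK, fell from -2.02, -1.94 and -2.02 to -2.30, -2.33 and -2.33 (-0.33 ± 0.04, adjusted p = 0.00242). Sensors and effectors such as Hspa5 (0.05, adjusted p = 0.715) and Ddit3 (-0.02, adjusted p = 0.914) were not called. Without control replicate 1 or 3 or stretched replicate 1 or 3 the list had 1 faller.

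Gjb2, connexin 26, a gap junction gene not counted among the usual cardiac connexins, made the second largest called rise. It stood at -2.83, -2.90 and -2.73 in controls and at -1.72, -1.70 and -1.66 after stretch (2.19-fold, 1.13 ± 0.10, adjusted p = 6.09e-04 by limma; probe on chromosome 15, 36153667 to 36153726, rn4). Against the same controls it stood at 1.02 at 6 h and 1.13 at 24 h. Gja1, the main ventricular connexin, had overlapping groups, with 3.84, 3.76 and 3.71 against 3.87, 3.81 and 3.81 (0.06 ± 0.05, adjusted p = 0.492).

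Of 42 ion channel and gap junction genes 5 rose, 0 fell and 37 were not called (11.9% called, median 0.02). Kcnip2, the accessory subunit of the transient outward current, rose by 0.59 ± 0.15, and its pore partner Kcnd2 was at -0.03 ± 0.19 (adjusted p = 0.944). Hcn4, the pacemaker channel, rose by 0.40 ± 0.09 and Kcnj5, a G-protein-gated channel, by 0.23. Kcne1, an accessory subunit of the slow delayed rectifier, is counted among the risers but was above background on 0 of 3 control arrays and 1 of 3 stretched arrays, so no size is given for its change. Its call was lost without any 1 of 4 arrays. Kcnip2 lost its call without control replicate 1 (adjusted p = 0.0968), control replicate 2 (0.0858), stretched replicate 1 (0.0994) or stretched replicate 2 (0.0912), and Hcn4 without control replicate 1 (0.0521), control replicate 3 (0.0689) or stretched replicate 3 (0.0623).

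In the list of adrenergic and G-protein signalling 5 of 39 rose and 2 fell. Of the fallers, 1 was above background on 3 of 3 control arrays and 0 of 3 stretched arrays, so no size is given for its change. Gprc5a, an orphan receptor, rose from -0.38, -0.46 and -0.39 to 0.25, 0.12 and 0.28 (0.63 ± 0.07, adjusted p = 0.00233). Gem, a small GTPase that inhibits calcium channels, fell by 0.41 ± 0.07, a call lost under normexp with quantile normalization (0.1) and in the deposited series matrix (0.195), among other settings.

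Cardiac transcription factors split, with 4 risers, 3 fallers and 23 uncalled among 30 (median -0.02, and 0.02 under the array median). Nkx2-5, the homeobox factor of the heart field, stood at 3.22, 3.22 and 3.19 in controls and at 3.68, 3.59 and 3.61 after stretch (0.42 ± 0.07, adjusted p = 0.00541 by limma). The Iroquois genes moved apart: Irx4, which marks ventricle, fell from 1.72, 1.67 and 1.65 to 1.02, 1.37 and 1.13 (-0.50 ± 0.08, adjusted p = 0.00475), whereas Irx5 rose by 0.23 and Irx3 by 0.19. Nfatc4, a calcineurin target, fell from -0.18, -0.09 and -0.04 to -0.55, -0.81 and -0.59 (-0.55 ± 0.07, adjusted p = 0.00242). With spike-in scaling 0 members of this list were called in either direction.

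Sterol and fatty-acid synthesis was the list with the lowest median, -0.18: among 34 genes there were 0 risers and 11 fallers, and on this scale no member had a change above 0. At an unadjusted p below 0.05, 0 were higher and 19 lower. Srebf1, the transcription factor that drives lipid synthesis, stood at 0.12, 0.02 and 0.11 in controls and at -0.45, -0.51 and -0.30 after stretch (-0.50 ± 0.06, adjusted p = 0.00239 by limma). Dhcr7, the enzyme of the last step to cholesterol, fell from 0.68, 0.79 and 0.87 to 0.40, 0.39 and 0.35 (-0.40 ± 0.07, adjusted p = 0.00933). The desaturase gene Scd fell by 0.36 ± 0.08 and lanosterol synthase (Lss) by 0.29 ± 0.06, while Fasn, fatty acid synthase, was at -0.00 (adjusted p = 0.976).

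Leaving out any 1 array left 6 (control replicate 1 or 3), 7 (control replicate 2 or stretched replicate 1) or 8 (stretched replicate 2 or 3) fallers. Scd lost its call without control replicate 1 (adjusted p = 0.065), control replicate 2 (0.0732), stretched replicate 1 (0.0671) or stretched replicate 2 (0.0589), and Lss without control replicate 1 (0.0518) or 3 (0.062). Under the array median the list had 5 fallers and a median of -0.14, under quantile normalization 16 and -0.19, and under spike-in scaling 0 and -0.00. At 24 h Srebf1 stood at 0.01 against the same controls and Dhcr7 at -0.06.

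In fatty-acid oxidation, the main energy source of adult heart muscle, 6 of 35 genes rose and 1 fell (median 0.09). Ppara, the nuclear receptor that controls these genes, rose by 0.31 ± 0.07, while Ppargc1a, its coactivator, fell from -2.06, -2.05 and -2.10 to -2.36, -2.31 and -2.42 (-0.30 ± 0.06, adjusted p = 0.0101 by limma). Without control replicate 1 the list had 2 risers, without control replicate 2 it had 4, and without any of the other arrays 3. Ppara lost its call without control replicate 1 (adjusted p = 0.0629), control replicate 2 (0.0825), stretched replicate 2 (0.0623) or stretched replicate 3 (0.0668). Of 33 genes of glycolysis and hypoxia 4 rose and 0 fell (median 0.07), led by Adm, adrenomedullin, a vasodilator peptide, from 1.72, 1.82 and 1.75 to 2.36, 2.32 and 2.29 (0.56 ± 0.05, adjusted p = 6.09e-04).

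Of 47 cell cycle genes 16 were called lower and 1 higher, with 30 uncalled and a median of -0.14. Cenpf, a kinetochore protein, stood at -2.09, -1.94 and -2.03 in controls and at -2.45, -2.33 and -2.40 after stretch (-0.37 ± 0.07, adjusted p = 0.00854 by limma). Nusap1, which bundles spindle microtubules, fell from -0.59, -0.58 and -0.61 to -0.98, -0.96 and -0.89 (-0.35 ± 0.06, adjusted p = 0.0064). Smaller falls were seen for the mitotic cyclins Ccnb1 (-0.26) and Ccnb2 (-0.27), the spindle motor Kif11 (-0.33) and the checkpoint kinase Bub1 (-0.31). The riser was the G1 cyclin Ccne1 (0.22). The count of fallers was 14 without control replicate 1, 10 without stretched replicate 1, 9 without control replicate 2 or stretched replicate 2 or 3, and 7 without control replicate 3. With spike-in scaling the median of the list was 0.03 and 0 members were called; without control replicate 2 that median was -0.14, again with 0 calls. Since these are mixed cultures, fewer dividing cells and less RNA per cell cannot be told apart.

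Among cytokine and NF-kB genes 1 of 32 rose, 2 fell and 29 were not called (9.38% called, median -0.01, and 0.03 under the array median). Socs3, the inhibitor of interleukin-6 signalling, fell from -3.64, -3.55 and -3.56 to -3.88, -4.08 and -4.14 (-0.45 ± 0.09, adjusted p = 0.0113 by limma). Tnf stood at -2.54, -2.73 and -2.79 in controls and at -3.32, -3.37 and -2.98 after stretch (-0.53 ± 0.13, adjusted p = 0.0326), and against the same controls at -1.46 at 6 h and -2.43 at 24 h. It lost its 2 h call without any of the arrays but stretched replicate 3: control replicates 1 (0.0968), 2 (0.0789) and 3 (0.0585) and stretched replicates 1 (0.0994) and 2 (0.096). The chemokine gene Ccl7 rose by 0.42 ± 0.10, without a call when control replicate 1, 2 or 3 or stretched replicate 2 or 3 was left out.

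Of 26 interferon-stimulated genes 0 rose and 5 fell (median -0.10). Gbp5, a guanylate-binding protein, fell from -4.10, -4.24 and -4.25 to -4.82, -4.71 and -4.53 (-0.49 ± 0.10, adjusted p = 0.0173), a call lost without control replicate 1 (0.0556) or stretched replicate 1 (0.0597). The list had 0 fallers without control replicate 1, 1 without control replicate 3 or stretched replicate 1, 2 without control replicate 2 or stretched replicate 3 and 4 without stretched replicate 2. With spike-in scaling its median was 0.08.

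In the remaining lists the shares called lay on both sides of the 9.20% over all genes. Of 21 p53 target and growth arrest genes 2 rose and 1 fell (14.3%), and of 30 ribosome biogenesis genes 2 rose and 0 fell (6.67%). Of 16 clock genes 2 rose and 1 fell (18.8%). The clock faller was above background on 1 of 3 control arrays and 0 of 3 stretched arrays, so no size is given for its change. Nfil3, a repressor of the clock output, rose from -1.03, -1.03 and -0.97 to -0.44, -0.55 and -0.50 (0.51 ± 0.04, adjusted p = 6.09e-04 by limma).

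**Figure D5:**
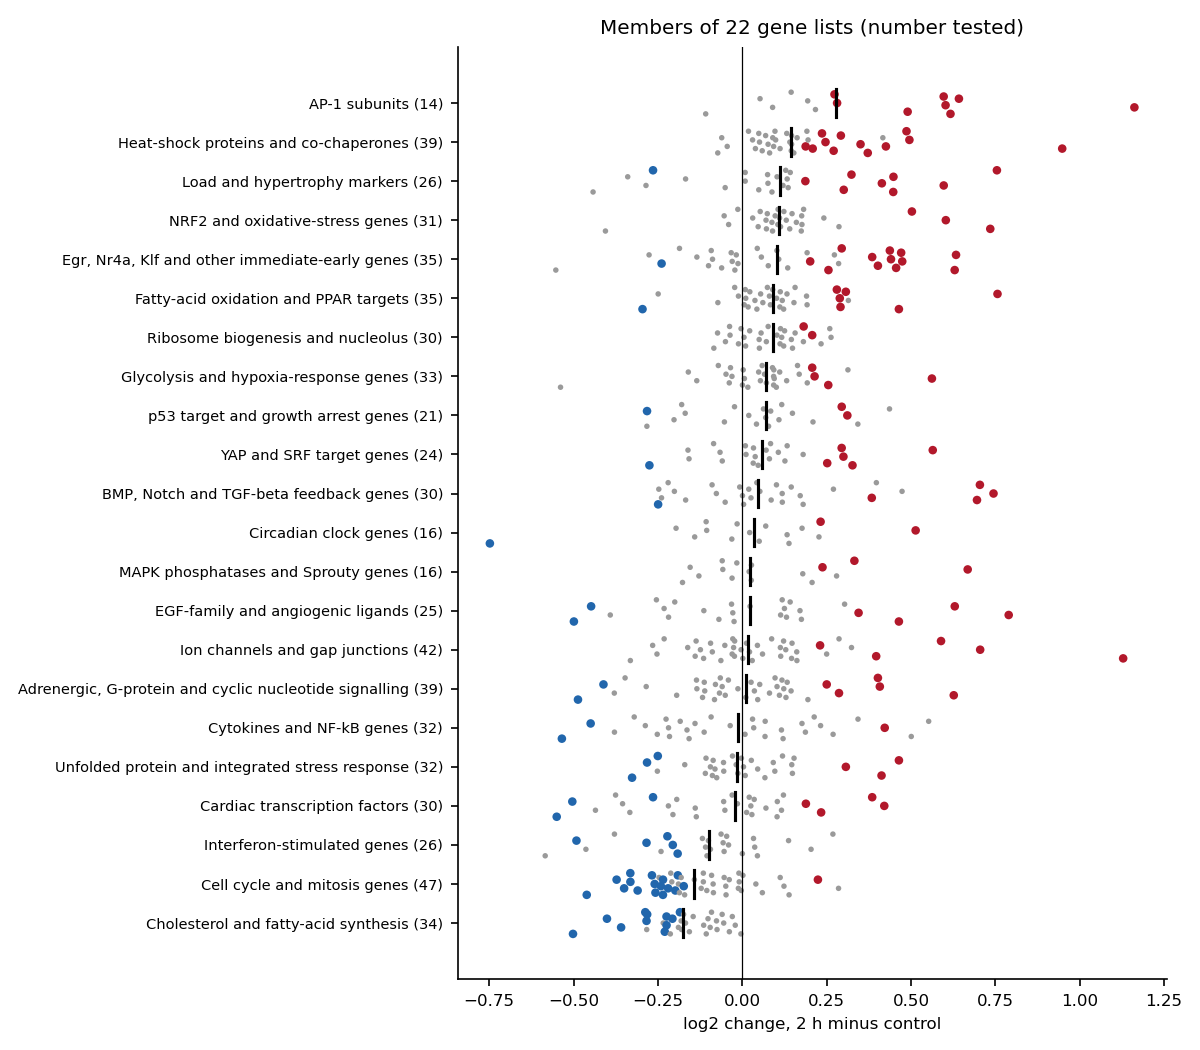
Log2 change at 2 h of every tested member of 22 gene lists, with the number tested in parentheses; red points were called higher, blue points lower, grey points not called, and the black bar is the median. AP-1 subunits have the highest median (0.28) and sterol and fatty-acid synthesis the lowest (-0.18).

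The cells carried the markers of their label. All 20 cardiomyocyte markers were above background on all 6 arrays, with a mean level of 5.13 to 5.20 in controls and 5.21 to 5.29 after stretch. Troponin T (Tnnt2, 0.01), phospholamban (Pln, -0.00) and cardiac actin (Actc1, 0.09) were not called, and Nkx2-5 was the called member. Markers of other cells were present too: 14 tested fibroblast markers had a mean level of -0.11 to -0.05 in controls and -0.16 to -0.07 after stretch, with Pdgfra, a growth factor receptor of fibroblasts, lower (-0.33 ± 0.06) and 13 uncalled. Of 14 smooth muscle and 12 endothelial markers 0 were called. At an unadjusted p below 0.05, 1 endothelial marker was higher and 0 lower, and 1 smooth muscle marker was higher and 2 lower.

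The mean level over 13 tested macrophage markers was -1.083 to -1.077 in controls and -0.973 to -0.828 after stretch, and the groups did not overlap. Adgre1, which encodes a surface receptor of mature macrophages, rose from -1.69, -1.58 and -1.64 to -1.13, -0.98 and -1.01 (1.51-fold, 0.59 ± 0.08, adjusted p = 0.00331 by limma), while 12 were not called, among them Cd68 (0.07, adjusted p = 0.595) and Lyz2 (0.14, adjusted p = 0.362). The mean of 3 red blood cell markers was -2.62 to -2.57 in controls and -2.45 to -2.21 after stretch, and the globin genes Hbb-b1 (0.50 ± 0.09) and Hbb (0.42 ± 0.10), which share much of their sequence, rose; the third marker, the globin chaperone gene Ahsp, was at -0.17 (adjusted p = 0.107). Hbb lost its call without control replicate 1 (0.0797), control replicate 2 (0.0752) or stretched replicate 1 (0.0712). The part of such cells in the changes of other genes was not tested.

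Outside the lists the largest called rises included Otud1, a deubiquitinase, from -1.19, -1.32 and -1.30 to -0.31, -0.29 and -0.44 (1.90-fold, 0.93 ± 0.09, adjusted p = 9.89e-04 by limma). Rnd1, a small GTPase that loosens actin fibres, rose from -1.46, -1.71 and -1.45 to -0.76, -0.63 and -0.59 (0.88 ± 0.11, adjusted p = 0.00239). Grb7, an adaptor of receptor kinases, rose by 0.89 ± 0.17. Rnf225, dim with a control mean of -5.90 but above background on all 6 arrays, rose by 0.83 ± 0.13. A second Rnf225 probe stood at 1.63. Fits on other dim probes gave further rises for Cplx1 (0.98 ± 0.22), Il7r (0.95 ± 0.26), RT1-Da (0.87 ± 0.21), Lrrc46 (0.79 ± 0.19) and Rgs9bp (0.77 ± 0.20). Apart from Lrrc46, these were above background on 1 or 2 of the 3 control arrays. On the stretched arrays Cplx1 was above background on 2 of 3 and Il7r, RT1-Da and Rgs9bp on 3 of 3. Those other than Lrrc46 thus passed the filter through a stretched group, and their values are a description. Each of Cplx1, Il7r, RT1-Da, Lrrc46 and Rgs9bp lost its call in at least 2 of the 6 runs that leave out an array, with adjusted p up to 0.145 by limma (Il7r without control replicate 3).

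Of the 13 falls of at least 2-fold, 12 were of probes above background on all 3 control arrays and on 0 of 3 stretched arrays. Since such a probe passed the filter through the controls or another group, its values are given as a description, with no test. A stretched value below the dimmest signal well above background on its array was replaced by that signal, and the fold is then a bound. Without such a value the fold is the plain difference of means. Spic, a transcription factor of red-pulp macrophages, stood at -3.35, -4.03 and -5.48 in controls and at -6.16, -6.34 and -6.10 after stretch. It was 3.78-fold lower, with no value replaced. The controls were spread over more than 2 log2 units, and without control replicate 3 the fitted change went from -1.92 to -2.52. Nfatc2ip stood at -5.84, -5.13 and -3.72 in controls and at -6.53, -6.87 and -6.36 after stretch, at least 3.21-fold lower; control replicate 3 was the highest, and without it the fitted change went from -1.69 to -1.105.

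Zc3h12d, an RNase of immune cells, had tighter controls, at -4.96, -5.04 and -5.08. After stretch it stood at -6.84, -5.96 and -6.04 and was 2.39-fold lower. Its stretched arrays were more spread (SD 0.49) than those of Spic (0.13) and Nfatc2ip (0.26). Ypel4 was 2.11-fold lower and Slc49a3 1.99-fold. In Zc3h12d, Ypel4 and Slc49a3 no value was replaced. Xkr6, a membrane protein, was at least 2.30-fold lower.

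Among fallers above background on all 6 arrays, which were singled out after their values were seen, Sphkap, an anchor of protein kinase A in heart muscle, went from a mean level of 0.21 in controls to -0.52 after stretch (-0.74 ± 0.09, adjusted p = 0.00239). Plag1, a zinc finger factor, went from -0.95 to -1.57 (-0.62 ± 0.05) and Engase, an endoglycosidase, from -2.05 to -2.79 (-0.74 ± 0.05). Among risers above background on all 6 arrays, chosen in the same way, Inhbb, a subunit of activin B, rose by 0.69 ± 0.11 and Kcnk13, a background potassium channel, by 0.69 ± 0.08.

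Whether 2 h differed from 6 h was asked for 23 fixed genes that were tested, in a contrast that shares the stretched arrays of 2 h with the comparison above; over all genes 10.5% were called. Of the 23 genes 7 were called. Tnf was lower still at 6 h (-0.93, adjusted p = 0.00596 by limma), and the mean levels of Fos (-0.44, 0.0327), Hspa1b (-0.49, 0.0329) and Ccn2 (-0.23, 0.0497) were lower at 6 h than at 2 h. Those of Xirp2 (0.64, 0.0271), Acta1 (0.30, 0.0232) and Nppb (0.30, 0.035) were higher. With slide as a block, since 1 array of 6 h lay on slide 2, Tnf and Acta1 kept the call, and Fos (0.0685), Hspa1b (0.0698), Ccn2 (0.061), Xirp2 (0.0855) and Nppb (0.103) did not.

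By genomic length the called risers were shorter than the called fallers. The median length of the gene in RefSeq was 19.2 kb over 395 risers with an entry, 25.8 kb over 714 fallers and 22.3 kb over 11860 genes tested. For the 48 risers of at least 1.5-fold it was 14.4 kb. For fallers of at least 1.5-fold 66.3% had an entry, which is too few for the check. CCAAT boxes (CCAAT on either strand) lay in the promoters of 7 of 9 called sterol and fatty-acid fallers (77.8%) and of 10 of 13 called cell cycle fallers (76.9%), against 38.2% of genes tested and 45.1% of all called fallers. The share was not particular to fallers: the called heat-shock risers held the box in 7 of 9 promoters (77.8%). Over all called risers it was 39.0%. No share was counted for the uncalled members of these lists.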

How the data were processed

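The members and the gene lists were chosen with earlier results of these data known. The scanner images had been read with Agilent Feature Extraction 11.0.1.1 per the file headers; the submitters' processing notes name 10.7.3.1. The main column, Agilent's processed signal, is an intensity after background subtraction and before any scaling across arrays, per the file headers. The raw spot and background brightness are intensity columns too, and the flags of each spot are other values, 0 or 1, as deposited. The deposited series matrix holds an intensity per probe with unstated scaling and served only as an alternative; all its columns belong to the samples used. Probe coordinates are those of rat build rn4 in the files.

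Signals were put on the log2 scale, outlier spots left out, spots of a probe averaged and the 75th percentile of each array subtracted. A probe stayed if some group had it well above background on each of its 3 arrays (18997 of 30367), and the brightest named probe stood for each gene; of 226 called genes with more than 1 kept probe, 18 had a probe of the other sign. Group means over the 12 arrays were estimated by limma 3.58.1 in R 4.3.3 (two-sided, Benjamini-Hochberg over 14376 genes); errors are standard errors of that fit unless marked SD. The script was tested on simulated data. Named genes are those of a fixed list, the 15 largest called rises and 15 largest called falls without overlap, up to 4 called members of each list, and list members shown for a promoter motif or for contrast with a named gene. Of the called risers in the lists, 70 of 94 matched a promoter by symbol. Promoters and gene lengths are RefSeq's on GRCr8; alternatives are given in the closing part. A few list members that were counted are not reported here by name.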

Additional observations from a re-analysis of the deposited data

Results flagged for a closer look

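For 7 of the 23 fixed genes the level at 6 h differed from that at 2 h by the test of the difference itself (limma, adjusted over all genes). The log2 change from 2 h to 6 h was 0.302 for Acta1, -0.228 for Ccn2, -0.437 for Fos, -0.494 for Hspa1b, 0.304 for Nppb, -0.927 for Tnf and 0.642 for Xirp2. These values share the 2 h arrays with the comparison against control.

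Among 2036 probes without a gene name, which no comparison above uses, 8 were called between 2 h and control, 2 higher and 6 lower (0.393%, against 9.20% of named genes). These probes were fitted and adjusted apart from the named genes, and every kept probe was counted. The shares thus do not rest on the same threshold. Groups of 3 samples were not tested for outlying samples.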

How the results depend on the processing

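The 1322 calls at 2 h stayed within 1.5 times under the array median, quantile normalization, normexp, the deposited series matrix, the stricter background filter, the slide block, the trended robust fit and the mean over probes, except that the array median gave 668 risers. Spike-in scaling gave 175 (128 higher, 47 lower) and, chosen after seeing the data, without control replicate 2, 26 (10 higher, 16 lower). No filter gave 644 (238 higher, 406 lower), the 6 arrays fitted alone 463 (156 higher, 307 lower) and slide 1 alone 813 (268 higher, 545 lower). Row as a block gave 200 (61 higher, 139 lower) and row 1 alone, also chosen after seeing the data, 2 (0 higher, 2 lower). Leaving out 1 array gave 665 to 1021 calls, 225 to 333 higher and 440 to 688 lower. For 6 h minus 2 h the slide block gave 599 calls against 1506. The cause of these differences was not tested. Deviations of same-numbered replicates from their group means had correlations of 0.03, 0.04 and -0.02. With so few arrays in a group these cannot settle whether equal numbers pair the samples, and the labels do not say. With a replicate block 1030 genes were called, 97 of the 114 named calls among them. With row as a block, where the 2 h change rests on stretched replicate 1 against the controls, 27 of those 114 were called. Signal over background limits the dim genes: 40 called genes were above background on no array of 1 group.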

Other observations

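Genes named as zinc finger proteins by symbol, looked at after the values were seen, leaned downward at 2 h. Of 208 tested, 34 were called lower (16.3%, against 6.10% of all genes), 3 higher and 171 not, with a median change of -0.10. They were dimmer than other genes, with a median level of -2.71 against -1.19 over all genes. In sets of 3594 genes from the dimmest to the brightest, 266, 322, 239 and 50 were called lower. The part of level in the lean of these genes was not tested. Zfp879 (-0.88), Zfp40 (-0.77), Zfp458 (-0.68) and Zfp13 (-0.67) were among those above background on all 6 arrays.

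Some genes called higher at 2 h stood far below the same controls at 24 h. Adgre1 was at 0.59 at 2 h, -0.15 at 6 h and -2.57 at 24 h, the class II gene RT1-Da at 0.87, -0.48 and -2.64, and Kcnip2 at 0.59, 0.32 and -1.45. The chemokine gene Ccl12 was at 0.67, -0.28 and -1.26. These genes were chosen after their values were seen. RT1-Da was above background on 2 of 3 control arrays. The 24 h arrays lay on slide 2 and the controls on slide 1, so slide and time cannot be told apart at 24 h.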
